A study of Mus musculus with 12 samples.

Results

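Sterol synthesis genes and the genes that the sterol regulatory element-binding proteins (SREBPs) switch on were followed in cultured mouse trigeminal ganglion (TG) neurons after transfection of a microRNA. The set was chosen by name: 28 genes of the mevalonate pathway, of squalene and sterol synthesis, of fatty acid synthesis and desaturation, and of the SREBP machinery. Of these 28 genes 24 have a probe with that gene's symbol, 1 each, among the 19505 gene symbols of the table. Acat2, Tm7sf2, Scd2 and Srebf1 were not analysed here. The 24 fall into 6 mevalonate genes, 11 genes of squalene and sterol synthesis, 2 fatty acid genes and 5 regulators and sterol carriers.

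TG neurons carry touch, temperature and pain from the face. Per the labels they were a primary culture on laminin-coated glass, transfected with miR-21, with miR-34a, with miR-324 or, as the control, with scramble miRNAs. There are 3 arrays for each of these 4 groups and 12 in all. The labels give no strain, genotype, age, dose or time, and whether arrays of 1 group stem from different mice or dishes is not said. The spread behind each p-value is therefore that between arrays, and how much of it is technical is not known. It also holds differences in what the cultures contained. The Y-linked gene Eif2s3y read 2.27, 2.79 and 8.53 in miR-34a 1, 2 and 3. It read 7.88, 2.96 and 5.13 in miR-324 1, 2 and 4. Prl, a pituitary hormone gene, read 3.42, 4.83 and 14.92 in scramble 1, 2 and 3. The values are log2 signals, on which a difference of 1 is a 2-fold difference.

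The labels name the miRNAs without an arm. The mature forms are shown with the seed, bases 2 to 8, in capitals, because the seed is what pairs with target mRNAs; both arms of miR-324 are given, and the 5p arm of miR-21 and miR-34a. The sequences are RefSeq's (GRCm38.p6).
mmu-miR-21a-5p: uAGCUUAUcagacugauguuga
mmu-miR-34a-5p: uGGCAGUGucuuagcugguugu
mmu-miR-324-5p: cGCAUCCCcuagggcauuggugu
mmu-miR-324-3p: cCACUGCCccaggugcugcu
No 2 of these 4 seeds are the same. Sites for them in the members' mRNAs were not searched here.

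As background, cells make cholesterol from acetyl-CoA through mevalonate, farnesyl diphosphate, squalene and lanosterol. When sterols in the endoplasmic reticulum run low, SCAP escorts the SREBPs to the Golgi, where they are cut and go to the nucleus to switch on the enzymes of this path. When sterols are plentiful, the INSIG proteins hold SCAP back, and INSIG1 is itself made on demand from SREBP. Neurons in culture make sterol for growing membranes and also take it up from glia.

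SREBPs bind sterol regulatory elements near the start site, usually with the factor NF-Y beside them. Promoters of 4 members are shown, from 250 bases before to 50 after the start, because Idi1, Msmo1 and Insig1 were lower after miR-21 and Hmgcs1 carries the motif of the element. Capitals mark CCAAT (the NF-Y box) and TCACNNCAC (the core of the element with 2 free bases), each searched on both strands. In the Msmo1 promoter the 2 matches overlap by 1 base.
Hmgcs1 promoter, chr13:119690101-119690400 (+): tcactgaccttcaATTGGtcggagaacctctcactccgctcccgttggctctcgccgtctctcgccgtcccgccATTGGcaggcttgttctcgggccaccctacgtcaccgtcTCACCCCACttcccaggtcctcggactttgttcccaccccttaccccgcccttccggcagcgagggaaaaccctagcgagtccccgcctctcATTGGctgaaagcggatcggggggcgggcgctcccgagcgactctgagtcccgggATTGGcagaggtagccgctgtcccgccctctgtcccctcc
Idi1 promoter, chr13:8885356-8885655 (+): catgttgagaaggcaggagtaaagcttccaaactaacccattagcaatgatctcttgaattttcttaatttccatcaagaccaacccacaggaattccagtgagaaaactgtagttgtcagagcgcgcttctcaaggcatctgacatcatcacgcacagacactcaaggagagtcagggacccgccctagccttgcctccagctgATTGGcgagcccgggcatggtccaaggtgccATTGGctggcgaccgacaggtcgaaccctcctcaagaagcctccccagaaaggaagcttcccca
Msmo1 promoter, chr8:64733529-64733828 (-): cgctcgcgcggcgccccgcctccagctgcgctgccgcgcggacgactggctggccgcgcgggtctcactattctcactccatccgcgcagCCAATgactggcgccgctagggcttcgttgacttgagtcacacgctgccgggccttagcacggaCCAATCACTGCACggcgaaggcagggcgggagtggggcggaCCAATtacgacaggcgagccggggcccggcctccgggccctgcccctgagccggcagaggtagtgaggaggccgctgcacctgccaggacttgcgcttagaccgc
Insig1 promoter, chr5:28071162-28071461 (+): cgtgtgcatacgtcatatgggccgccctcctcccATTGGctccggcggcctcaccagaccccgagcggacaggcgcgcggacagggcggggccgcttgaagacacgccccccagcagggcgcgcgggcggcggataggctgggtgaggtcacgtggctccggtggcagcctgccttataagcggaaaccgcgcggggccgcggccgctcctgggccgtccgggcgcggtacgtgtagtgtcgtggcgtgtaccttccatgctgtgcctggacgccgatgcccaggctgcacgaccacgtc
All 4 are from RefSeq's GRCm38.p6. CCAAT was found at 1 or more listed starts of 18 of the 19 members with a promoter in the table, against 41.1% of 27025 genes. TCACNNCAC was found in 4 of 19 (Hmgcs1, Msmo1, Hsd17b7 and Dhcr7), against 4.37% of genes, and the stricter TCACNCCAC in Hmgcs1 alone, against 1.44%. A match is a description of these letters and not a measured site.

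The titles of the arrays divide them in another way than the miRNA. Scramble 1 and 2 and miR-34a 1 and 2 share a suffix (suffix A in what follows). A second suffix, B, is on miR-324 2 and scramble 3, and the 3 miR-21 arrays, miR-34a 3 and miR-324 1 and 4 have neither. What a suffix stands for is not given. All 10 neuron markers lay at 7.96 to 16.74, above the median of all probes in every array (5.91 to 6.06), but their median was 14.73 to 15.23 in the suffix A arrays, 13.35 and 13.69 in suffix B, and 10.52 to 13.56 without a suffix.

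**Figure D1:**
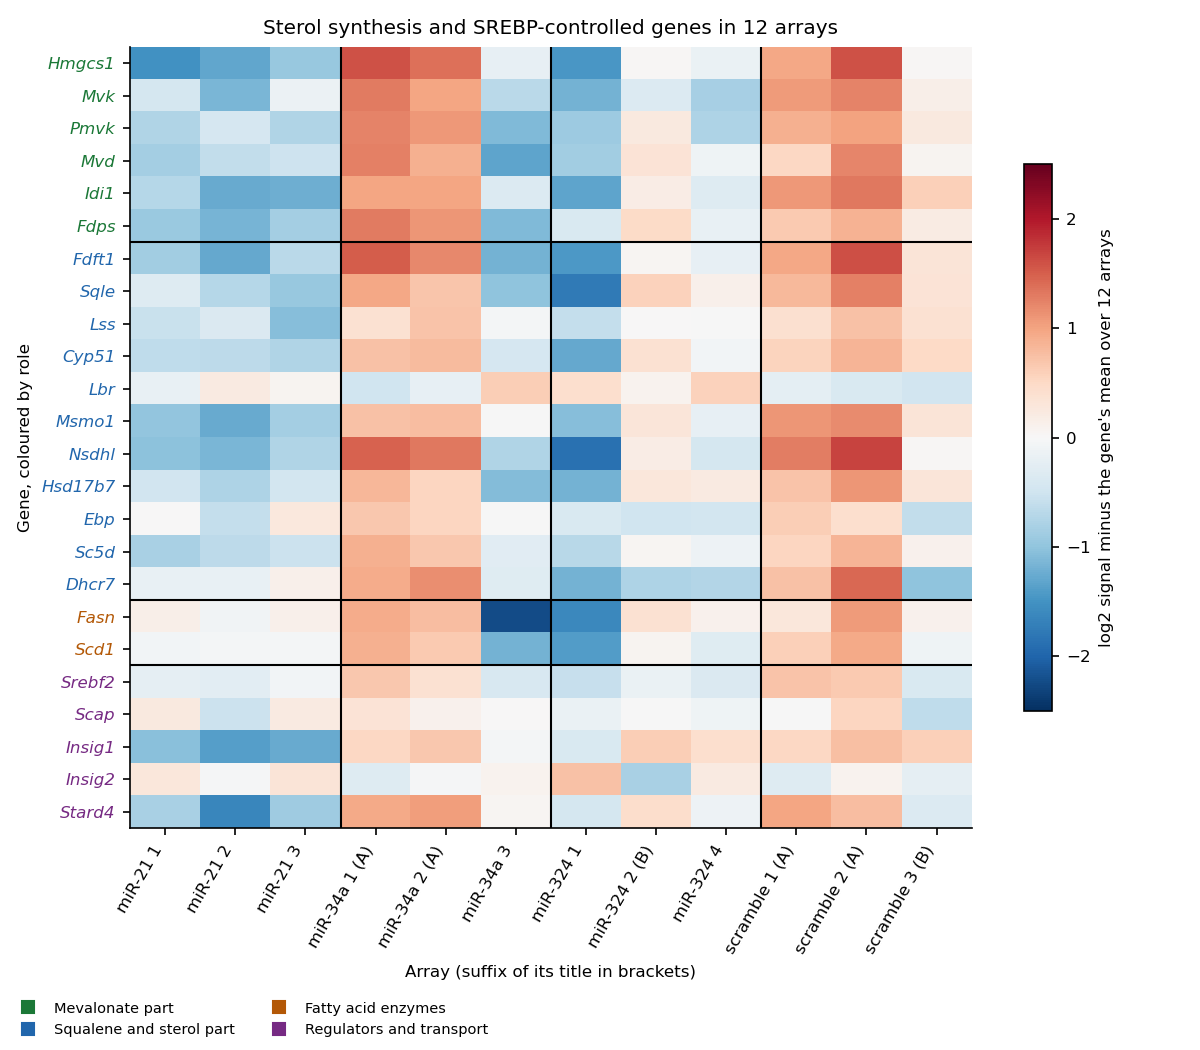
Log2 signal of the 24 measured genes (rows, grouped and coloured by role) in the 12 arrays (columns, by group, suffix in brackets), each shown minus the gene's mean over the 12 arrays. The 4 suffix A arrays are red for most genes, and the miR-21 arrays, miR-34a 3 and miR-324 1 are blue.

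The 6 mevalonate genes carry acetyl-CoA units to farnesyl diphosphate. Hmgcs1, which makes HMG-CoA, stood at 12.69, 12.92 and 13.27 in miR-21 1, 2 and 3, 15.80, 15.58 and 14.01 in miR-34a 1, 2 and 3, 12.76, 14.23 and 14.05 in miR-324 1, 2 and 4, and 15.18, 15.80 and 14.23 in scramble 1, 2 and 3. All 3 miR-21 values lay below every scramble value, and within scramble and miR-34a the third array was over 2-fold below one or both of the others. Mvk, mevalonate kinase, measured 5.55, 4.85 and 5.83 in miR-21 1, 2 and 3, 7.28, 6.98 and 5.31 in miR-34a 1, 2 and 3, 4.80, 5.65 and 5.16 in miR-324 1, 2 and 4, and 7.05, 7.22 and 6.14 in scramble 1, 2 and 3. Pmvk, the next kinase, had signals of 7.21, 7.54 and 7.20 in miR-21 1, 2 and 3, 9.20, 9.05 and 6.85 in miR-34a 1, 2 and 3, 7.04, 8.20 and 7.19 in miR-324 1, 2 and 4, and 8.84, 8.96 and 8.21 in scramble 1, 2 and 3. Mvd, the decarboxylase that yields isopentenyl diphosphate, read 7.19, 7.44 and 7.52 in miR-21 1, 2 and 3, 9.31, 8.94 and 6.73 in miR-34a 1, 2 and 3, 7.18, 8.38 and 7.93 in miR-324 1, 2 and 4, and 8.56, 9.27 and 8.11 in scramble 1, 2 and 3. For each of these 3 genes the 4 suffix A arrays were the highest, and miR-34a 3 lay below the mean of the miR-21 arrays.

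Idi1, which isomerises isopentenyl diphosphate (chromosome 13, 8885606 to 8892396), stood at 10.12, 9.58 and 9.61 in miR-21 1, 2 and 3, 11.83, 11.83 and 10.50 in miR-34a 1, 2 and 3, 9.51, 11.03 and 10.51 in miR-324 1, 2 and 4, and 11.92, 12.16 and 11.44 in scramble 1, 2 and 3. Its miR-21 and scramble values did not overlap. Fdps, farnesyl diphosphate synthase, measured 9.23, 9.00 and 9.30 in miR-21 1, 2 and 3, 11.45, 11.27 and 9.05 in miR-34a 1, 2 and 3, 9.78, 10.64 and 9.98 in miR-324 1, 2 and 4, and 10.81, 11.03 and 10.37 in scramble 1, 2 and 3. The suffix A arrays were again the 4 highest for both genes.

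The 11 genes of squalene and sterol synthesis begin with Fdft1 and end with Dhcr7. Fdft1, squalene synthase, had signals of 12.53, 12.12 and 12.74 in miR-21 1, 2 and 3, 14.91, 14.61 and 12.22 in miR-34a 1, 2 and 3, 11.98, 13.45 and 13.20 in miR-324 1, 2 and 4, and 14.37, 15.02 and 13.72 in scramble 1, 2 and 3. Sqle, the epoxidase that starts ring closure, read 10.80, 10.41 and 10.17 in miR-21 1, 2 and 3, 12.09, 11.82 and 10.11 in miR-34a 1, 2 and 3, 9.36, 11.69 and 11.25 in miR-324 1, 2 and 4, and 11.93, 12.39 and 11.46 in scramble 1, 2 and 3. Cyp51, the lanosterol demethylase, stood at 12.03, 12.00 and 11.91 in miR-21 1, 2 and 3, 13.40, 13.44 and 12.23 in miR-34a 1, 2 and 3, 11.37, 13.04 and 12.59 in miR-324 1, 2 and 4, and 13.22, 13.51 and 13.16 in scramble 1, 2 and 3. All 3 genes were below every scramble value in each miR-21 array, and the lowest of the 12 arrays was miR-324 1 for each.

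Msmo1, a sterol methyl oxidase (chromosome 8, 64718123 to 64733578), measured 8.48, 8.22 and 8.63 in miR-21 1, 2 and 3, 10.20, 10.25 and 9.46 in miR-34a 1, 2 and 3, 8.40, 9.78 and 9.26 in miR-324 1, 2 and 4, and 10.57, 10.65 and 9.79 in scramble 1, 2 and 3. Nsdhl, its partner in removing the methyl groups, had signals of 11.35, 11.24 and 11.63 in miR-21 1, 2 and 3, 13.85, 13.70 and 11.64 in miR-34a 1, 2 and 3, 10.51, 12.57 and 11.95 in miR-324 1, 2 and 4, and 13.66, 14.08 and 12.42 in scramble 1, 2 and 3. Hsd17b7, the ketosteroid reductase of the same steps, read 11.45, 11.16 and 11.48 in miR-21 1, 2 and 3, 12.76, 12.47 and 10.85 in miR-34a 1, 2 and 3, 10.76, 12.21 and 12.17 in miR-324 1, 2 and 4, and 12.65, 13.04 and 12.23 in scramble 1, 2 and 3. These 3 genes had no overlap between miR-21 and scramble, and miR-324 1 was the lowest or second lowest array for each.

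Sc5d, a sterol desaturase, stood at 11.84, 12.01 and 12.12 in miR-21 1, 2 and 3, 13.55, 13.34 and 12.37 in miR-34a 1, 2 and 3, 11.96, 12.71 and 12.54 in miR-324 1, 2 and 4, and 13.19, 13.51 and 12.77 in scramble 1, 2 and 3. Dhcr7, the reductase of the last step to cholesterol, measured 9.30, 9.31 and 9.62 in miR-21 1, 2 and 3, 10.43, 10.65 and 9.19 in miR-34a 1, 2 and 3, 8.31, 8.72 and 8.76 in miR-324 1, 2 and 4, and 10.22, 10.93 and 8.48 in scramble 1, 2 and 3. Dhcr7 differed from the genes before it in scramble 3, which was 2.09 below the mean of scramble 1 and 2 and below all 3 miR-21 arrays. The other members here were Lss (8.84 to 10.64 over the 12 arrays), Ebp (8.66 to 9.96) and Lbr (10.25 to 11.37). Lbr, the lamin B receptor with a sterol reductase domain, had signals of 10.57, 10.99 and 10.82 in miR-21 1, 2 and 3, 10.25, 10.55 and 11.37 in miR-34a 1, 2 and 3, 11.18, 10.85 and 11.34 in miR-324 1, 2 and 4, and 10.52, 10.37 and 10.27 in scramble 1, 2 and 3. Lbr ran the other way, lowest in suffix A and scramble arrays and highest in miR-34a 3.

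Of the fatty acid genes, Fasn makes palmitate and Scd1 desaturates stearate. Fasn read 12.04, 11.79 and 12.02 in miR-21 1, 2 and 3, 12.82, 12.66 and 9.65 in miR-34a 1, 2 and 3, 10.27, 12.27 and 12.00 in miR-324 1, 2 and 4, and 12.16, 12.94 and 12.00 in scramble 1, 2 and 3. Scd1 stood at 15.15, 15.16 and 15.17 in miR-21 1, 2 and 3, 16.09, 15.87 and 14.02 in miR-34a 1, 2 and 3, 13.81, 15.28 and 14.91 in miR-324 1, 2 and 4, and 15.80, 16.16 and 15.10 in scramble 1, 2 and 3. For both genes miR-34a 3 and miR-324 1 were the 2 lowest arrays, while the 3 miR-21 arrays lay close together (SD 0.14 for Fasn and 0.01 for Scd1).

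Among the regulators, Srebf2 encodes the SREBP that drives sterol synthesis. It measured 13.38, 13.33 and 13.53 in miR-21 1, 2 and 3, 14.27, 13.98 and 13.19 in miR-34a 1, 2 and 3, 13.02, 13.44 and 13.24 in miR-324 1, 2 and 4, and 14.32, 14.26 and 13.21 in scramble 1, 2 and 3. The 4 suffix A arrays were above all others, and scramble 3 was below the miR-21 arrays. Insig1, the SREBP-induced retention factor (chromosome 5, 28071412 to 28078662), had signals of 10.18, 9.85 and 9.97 in miR-21 1, 2 and 3, 11.75, 11.91 and 11.18 in miR-34a 1, 2 and 3, 10.85, 11.85 and 11.65 in miR-324 1, 2 and 4, and 11.75, 11.98 and 11.83 in scramble 1, 2 and 3. The 3 miR-21 arrays were the lowest of the 12 and were separated from every other array, while scramble 3 lay between scramble 1 and 2. Insig2, its partner that is not driven by SREBP in the same way, read 6.92, 6.61 and 6.95 in miR-21 1, 2 and 3, 6.31, 6.60 and 6.72 in miR-34a 1, 2 and 3, 7.36, 5.82 and 6.86 in miR-324 1, 2 and 4, and 6.30, 6.72 and 6.40 in scramble 1, 2 and 3. Its groups overlapped. Stard4, a sterol carrier protein, stood at 7.96, 7.13 and 7.88 in miR-21 1, 2 and 3, 9.72, 9.82 and 8.82 in miR-34a 1, 2 and 3, 8.32, 9.20 and 8.63 in miR-324 1, 2 and 4, and 9.76, 9.53 and 8.43 in scramble 1, 2 and 3. The miR-21 arrays were the 3 lowest. Scap ranged over the 12 arrays from 9.88 to 11.05 with overlapping groups.

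**Figure D2:**
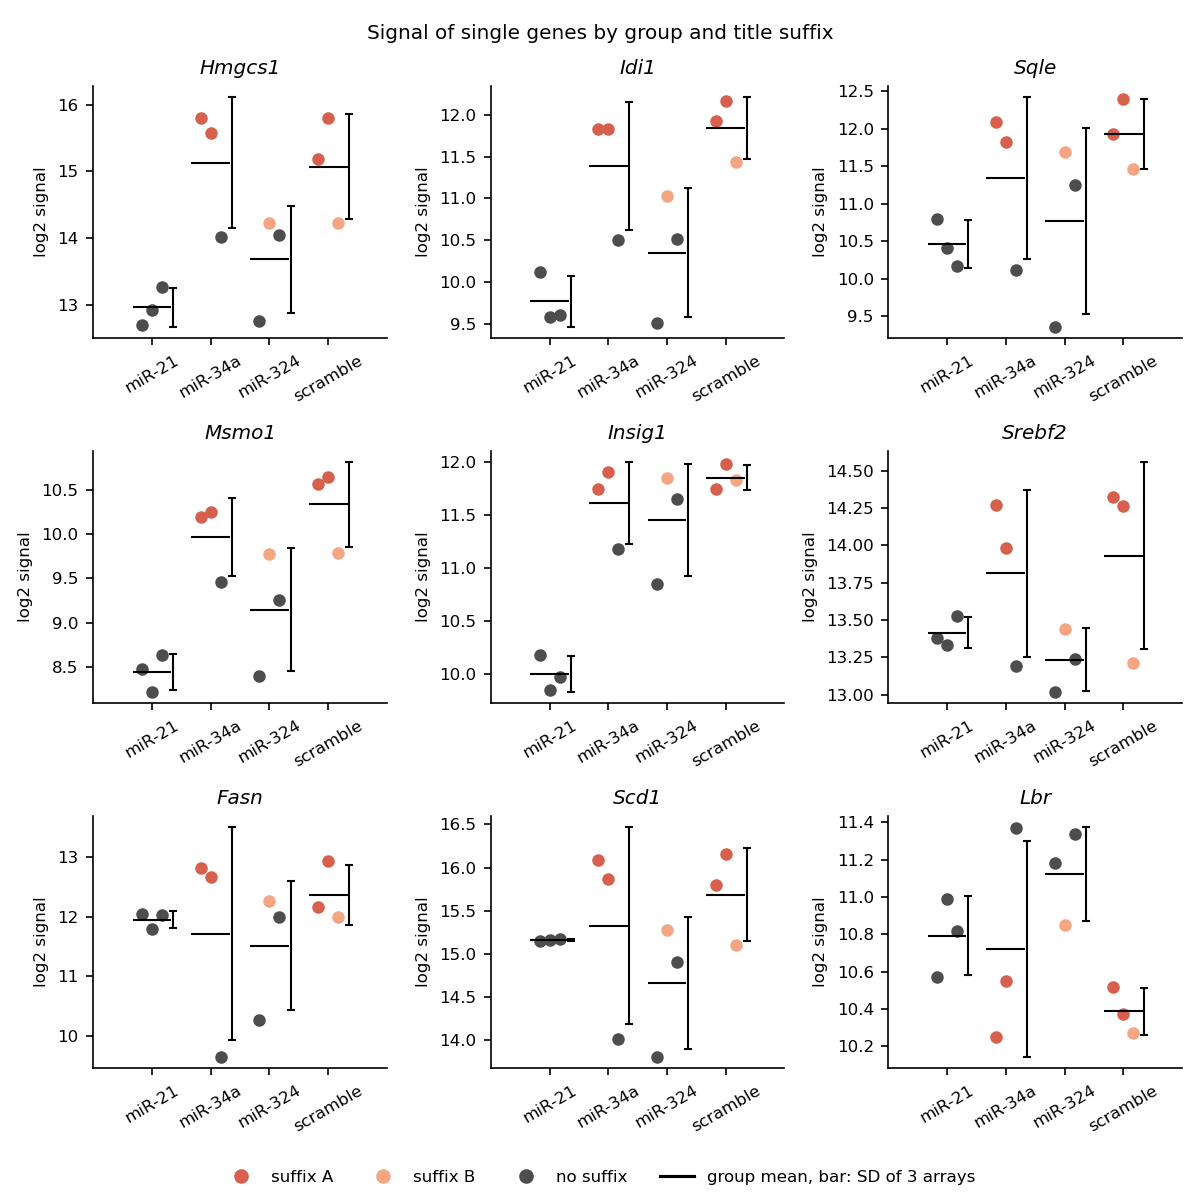
Log2 signal of 9 members in each array (points, coloured by suffix) with group means (lines) and SD over 3 arrays (bars). Insig1 in the miR-21 arrays lies at 9.85 to 10.18, below the 9 other arrays, whereas Fasn and Scd1 are lowest in miR-34a 3 and miR-324 1.

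After miR-21, 3 of 24 members fell relative to scramble and none rose. Insig1 averaged 10.00 ± 0.17 after miR-21 and 11.85 ± 0.12 after scramble (SD, n = 3 each), a log2 difference of -1.85 ± 0.28 (SE; limma, adjusted p = 0.016), or 3.61-fold lower. Msmo1 averaged 8.44 ± 0.21 after miR-21 and 10.34 ± 0.48 after scramble, a difference of -1.89 ± 0.36 (limma, adjusted p = 0.032). Idi1 averaged 9.77 ± 0.30 after miR-21 and 11.84 ± 0.37 after scramble, a difference of -2.07 ± 0.43 (limma, adjusted p = 0.044). Over all named probes 0.358% were called lower and 0.685% higher, at a Benjamini-Hochberg adjusted p under 0.05. By role, 1 of 6 mevalonate genes, 1 of 11 squalene and sterol genes, 0 of 2 fatty acid genes and 1 of 5 regulators and carriers fell.

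The median difference of the 24 members was -1.30, against 0.13 for all probes, and 21 of the 24 were lower in the mean. All 3 miR-21 arrays lay below all 3 scramble arrays for 16 members (8.75% of all probes) and above them for 1, Lbr (16.9% of all probes). The role medians were -1.48 for mevalonate genes, -1.28 for squalene and sterol genes, -0.47 for fatty acid genes and -0.52 for regulators and carriers. The largest difference, that of Hmgcs1, was -2.11 ± 0.53 and was not past the threshold (limma, adjusted p = 0.078). Fasn at -0.42 ± 0.73 (adjusted p = 0.80) and Scd1 at -0.53 ± 0.51 (adjusted p = 0.63) were also short of it.

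No array of miR-21 shares a suffix with a scramble array, so the miRNA and the suffix can be separated only through the other groups. With the suffix as a fixed block the median difference of the 24 members was 0.01, and 0 of 24 were called lower, against 1.39% of all probes; Insig1 stood at -1.22 ± 0.36 (limma, adjusted p = 0.094). With the suffix as a random block the median was -0.74 and again 0 of 24 were called, against 0.092% of probes; Insig1 stood at -1.58 ± 0.31 (adjusted p = 0.059). The direction of the fatty acid genes turned: their median was 1.47 with the fixed block, with Fasn at 1.87 ± 0.58 (limma, adjusted p = 0.12) and Scd1 at 1.07 ± 0.40 (adjusted p = 0.23), and 0.38 with the random block. With the fixed block 12 of 24 members were lower in the mean. Of the 6 fits that left out 1 array, Insig1 passed in 3, each without a scramble array, Msmo1 in 1, without scramble 3, and Idi1 in 0. Neuron markers moved with these genes: their list median was 12.79 to 13.56 after miR-21 and 13.69 to 15.23 after scramble, and all 10 were lower in the mean, 0 past the threshold (median difference -1.42). In the fixed block fit the neuron markers stood at a median of 1.45, 0 of 10 being lower and 1 called higher. With the random block their median was -0.30. Endothelial markers were lower in the mean for 6 of 6 (median -1.01) and dividing cell genes higher for 5 of 5 (1.62), with 0 called. The fixed block called 6 of 6 endothelial markers lower (-3.38) and 5 of 5 dividing cell genes higher (4.03). The random block called 0 of either (-2.01 and 2.78). Myelinating Schwann cell markers went up, with medians of 11.30 to 11.68 in miR-21 arrays and 7.73 to 8.35 in scramble arrays and 2 of 4 called higher (1 with the fixed block and 0 with the random block). Y-linked medians were 7.09 to 7.85 in miR-21 arrays and 2.81 to 2.93 in scramble arrays, with all 3 genes separated and 0 called, and macrophage medians were 5.11 to 5.44 and 4.44 to 8.76. Of the other markers Col1a2 of the fibroblast list (4.45 ± 0.83) and Cspg4 of the mural list (2.65 ± 0.50) were called higher (limma, adjusted p = 0.029 for each). These lists were mixed: in the mean 3 of 5 fibroblast markers were lower (list median -0.80, lowest -2.65). Of the 6 mural markers 2 were lower (list median 0.46, lowest -1.35). The part of these in the result was not tested, and in bulk RNA fewer cells of a type and less RNA per cell cannot be told apart.

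**Figure D3:**
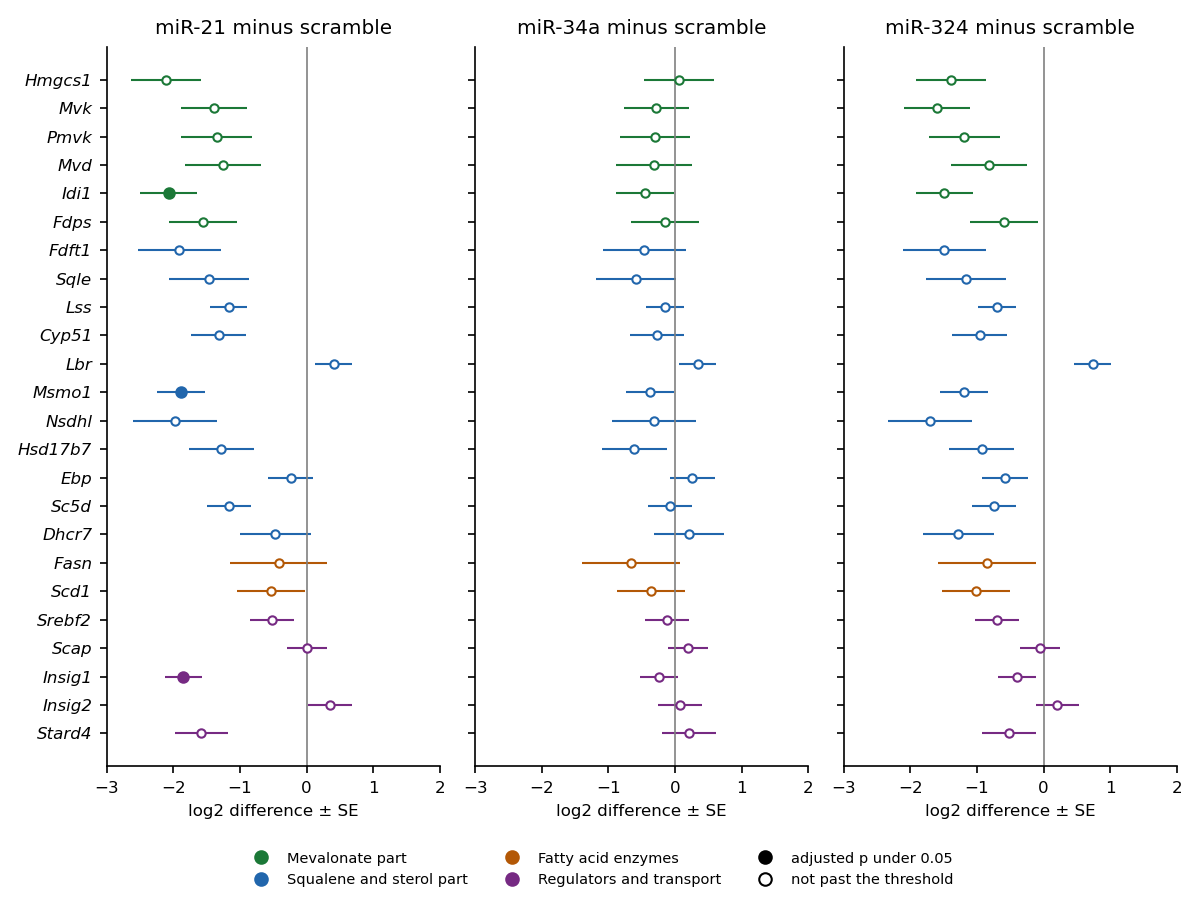
Log2 difference of each miRNA minus scramble for the 24 members (points, coloured by role; bars, SE of the limma fit over 12 arrays; filled, adjusted p under 0.05). The filled points are Idi1, Msmo1 and Insig1 after miR-21, and the points after miR-34a lie between -0.66 and 0.34.

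After miR-34a no member differed from scramble past the threshold, and 0% of all probes did. Differences ran from -0.66 for Fasn to 0.34 for Lbr, with a median of -0.26 against 0.04 for all probes. For 0 of 24 members did the arrays of the groups separate downward, against 2.31% of probes. Between arrays that share suffix A, miR-34a 1 and 2 against scramble 1 and 2, the median difference was -0.01, the range -0.38 to 0.44, and 0 of 24 members were over 2-fold apart, against 0.291% of probes. The fit on those 4 arrays called 0% of probes; Hmgcs1 differed by 0.20 ± 0.26, Insig1 by -0.04 ± 0.23 and Fasn by 0.19 ± 0.28 (SE). Without miR-34a 3 the median over the 24 members was 0.29.

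miR-34a 3 stood apart from its own group. Relative to it, the mean of miR-34a 1 and 2 was higher for 22 of 24 members, with a median of 1.34. For 15 of 24 members it was over 2-fold higher, against 9.74% of all probes. The gap was 3.09 for Fasn and 1.96 for Scd1. In the same array the neuron marker median was 10.52, against 14.99 and 14.89 in miR-34a 1 and 2, and the endothelial marker median was 14.66, against 11.21 and 11.32. Lower there too were the medians of macrophages (4.37 against 9.20 and 8.79), fibroblasts (8.06 against 12.27 and 11.81) and dividing cells (5.06 against 8.33 and 8.68). Higher were those of myelinating Schwann cells (11.09 against 8.32 and 8.26) and Y-linked genes (8.53 against 3.74 and 3.18). Whether these differences account for the gap was not tested.

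After miR-324, 22 of 24 members were lower than scramble in the mean, but none was past the threshold, nor was any probe (0% of 19572). The median difference was -0.89 against 0.09 for all probes. Nsdhl at -1.71 ± 0.63, Mvk at -1.60 ± 0.49, Idi1 at -1.49 ± 0.43 and Fdft1 at -1.49 ± 0.62 were furthest from 0 (limma, adjusted p = 0.31 to 0.32). The 3 miR-324 arrays lay below the 3 scramble arrays for 9 members (7.3% of probes) and above them for 1, Lbr (12.6% of probes). Role medians were -1.29 for mevalonate genes, -0.96 for squalene and sterol genes, -0.94 for fatty acid genes and -0.40 for regulators and carriers.

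Between the 2 arrays that share suffix B, miR-324 2 and scramble 3, the median difference was 0.07, the range -0.58 for Insig2 to 0.77 for Stard4, and 0 of 24 members were over 2-fold apart, against 4.97% of probes; with 1 array a side this has no test. With the suffix as a fixed block the median was 0.03. Of the 6 fits that left out 1 array, Dhcr7 passed the threshold in 1, without scramble 3 (limma, adjusted p = 0.043). Dhdds and Fntb, isoprenoid genes outside the 24, passed there too (adjusted p = 0.046 and 0.042). The share of all probes called in that fit is not given here. Scramble then holds only suffix A arrays and miR-324 has none, so miRNA and suffix cannot be told apart. Neuron marker medians were 11.00, 13.35 and 13.07 in miR-324 1, 2 and 4 and 14.73, 15.23 and 13.69 in scramble 1, 2 and 3. Pituitary marker medians were 6.11 to 7.88 in the miR-324 arrays and 3.62, 4.10 and 8.78 in scramble 1, 2 and 3. Endothelial markers were higher in the mean for 6 of 6 (median difference 2.46), and macrophage (-2.87) and dividing cell (-1.85) markers lower for 5 of 5 each; Y-linked genes differed by a median of 2.53, and no marker was past the threshold. Their part in the members' values was not tested.

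The miRNAs were also compared with each other. miR-21 fell below miR-324 for 1 member, Insig1, which averaged 10.00 ± 0.17 after miR-21 and 11.45 ± 0.53 after miR-324 (SD, n = 3 each), a difference of -1.45 ± 0.28 (limma, adjusted p = 0.022). Over all probes 1.14% were called lower. With the suffix as a fixed block the difference was -1.25 ± 0.26 (adjusted p = 0.0089, 2.86% of probes lower) and with a random block -1.36 ± 0.26 (adjusted p = 0.011). Among the arrays without a suffix, 3 of miR-21 and 2 of miR-324, it was -1.25 (adjusted p = 0.066, 1.89% of probes lower), and of the 6 fits without 1 array only that without miR-324 1 kept the call. The arrays separated for Fdps, Insig1 and Stard4 (lower after miR-21, 8.4% of probes) and for Dhcr7 (higher, 13% of probes). The member median was -0.34, against 0.05 for all probes. Markers moved here as well: endothelial markers were lower after miR-21 for 6 of 6 (median -3.50; Kdr, Tek and Cldn5 called), and Prl of the pituitary list was lower by a log2 difference of -11.04. Pmp22 and Cldn19 of myelinating Schwann cells, Col1a1 and Col1a2 of fibroblasts and Cspg4 of mural cells were called higher. Of the 5 fibroblast markers 2 were lower in the mean (list median 0.70, lowest -2.07), as was 1 of the 6 mural markers (-0.17). Genes of dividing cells stood at a median of 3.57, with 0 called in the fit on miRNA group. With the fixed block 5 of 5 dividing cell genes were called higher and 6 of 6 endothelial markers lower. With the random block 4 and 6 were called, and among the arrays without a suffix 5 and 6. The part of these markers in the Insig1 difference was not tested.

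miR-34a minus miR-21 called 0 of 24 members higher, against 0.0869% of probes. Insig1 was 1.61 ± 0.28 higher after miR-34a (limma, adjusted p = 0.051), and the arrays separated upward for 9 members (6.16% of probes), among them Hmgcs1, Idi1, Msmo1 and Stard4. With the suffix as a fixed block Insig1 was called higher at 1.18 ± 0.31 (limma, adjusted p = 0.046, 1.92% of probes). Fasn was called lower at -1.99 ± 0.50 (adjusted p = 0.037, 3.21% of probes). The miR-21 arrays have no suffix and miR-34a 3 is the only miR-34a array without one, so this fit leans on it. The same fit called 6 of 6 endothelial markers higher (median 3.26), 5 of 5 dividing cell genes lower (-4.45) and 4 of 10 neuron markers lower (-1.90). Without the block 0 of these were called (medians 1.23, -1.98 and 0.44). The part of these cells in the 2 calls was not tested. Without miR-34a 3 and without the block 13 members were called, all higher, against 1.27% of probes. That fit sets only suffix A arrays against arrays without a suffix, so miRNA and suffix cannot be told apart. miR-34a minus miR-324 called 0 of 24 members and 0% of probes, with a member median of 0.67, and 5 members higher without miR-34a 3, against 2.56% of probes. In that fit too no miR-34a array shares a suffix with a miR-324 array. These 3 comparisons and those with scramble share arrays and are not independent.

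The comparison by title suffix called more members than any comparison by miRNA. In a fit with both group and suffix, 18 of 24 members were higher in suffix A than in arrays without a suffix and 0 were lower; over all probes 7.76% were higher and 4.64% lower. The median difference was 1.53, against -0.14 for all probes. The 4 suffix A arrays lay above the 6 arrays without a suffix for 21 members (8.02% of probes) and below them for 1, Lbr (7.72% of probes).

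All 6 mevalonate genes were called, with a median of 1.90, led by Mvd at 2.14 ± 0.34 (limma, adjusted p = 0.00097) and Pmvk at 2.11 ± 0.26 (adjusted p = 0.000149). Of the squalene and sterol genes 8 of 11 were called, with a median of 1.22, led by Nsdhl at 2.35 ± 0.39 and Fdft1 at 2.31 ± 0.39. Both fatty acid genes were called: Fasn at 2.62 ± 0.48, or 6.15-fold, was the largest difference of all members, and Scd1 stood at 1.91 ± 0.33. Of the regulators and carriers 2 of 5 were called, Srebf2 at 1.09 ± 0.26 and Stard4 at 1.28 ± 0.33. Insig1 was not called (0.65 ± 0.30, limma, adjusted p = 0.20), nor were Lss, Ebp, Scap, Insig2 (-0.57 ± 0.31) and Lbr (-0.72 ± 0.28).

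This contrast leans on single arrays, because few groups span suffixes. It called 0 members without miR-34a 3, where 1.35% of probes were called higher. The count was 11 without scramble 3 and 11 without miR-324 2 (6.38% of probes in either fit) and 12 without miR-34a 1 (5.52%), while the median stayed between 1.34 and 1.63. Within scramble, the mean of arrays 1 and 2 (suffix A) exceeded array 3 (suffix B) for 24 of 24 members, Lbr and Insig2 included. The median was 0.75, against 0.02 for all probes, of which 10022 of 19572 were higher. Scramble 1 alone was below scramble 3 for Insig1 (11.75 and 11.83) and Insig2 (6.30 and 6.40). Suffix B minus no suffix called 0 members, against 0.593% of probes either way, with a median of 0.71. Suffix A minus suffix B called 1 member higher, Dhcr7 at 1.78 ± 0.32 (limma, adjusted p = 0.0039), against 4.97% of probes.

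**Figure D4:**
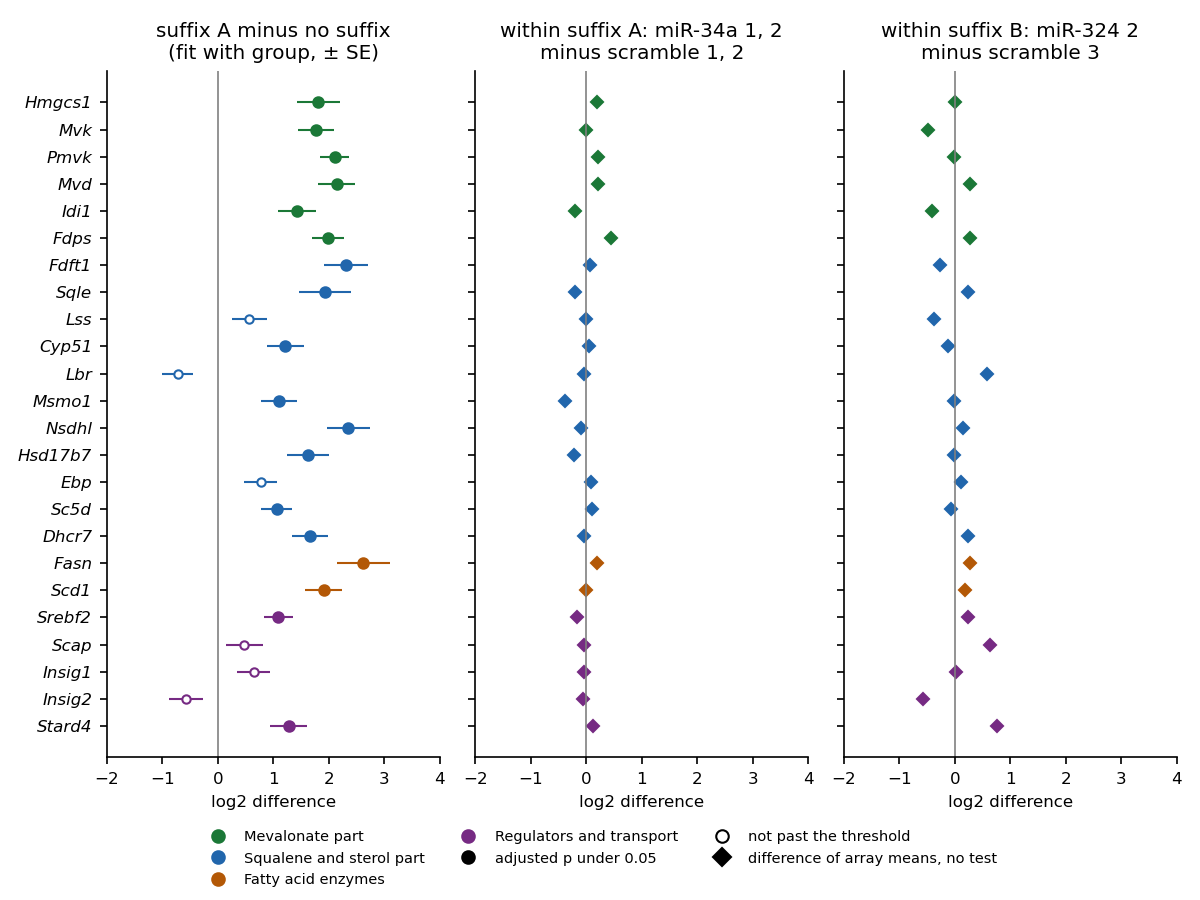
Log2 differences of the 24 members: suffix A minus no suffix in a fit with group (left; bars, SE; filled, adjusted p under 0.05), and miR-34a minus scramble within suffix A and miR-324 minus scramble within suffix B (middle and right, no test drawn). The left points reach 2.62, and the points within a suffix lie between -0.58 and 0.77.

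Cell type markers moved with the suffix too. Suffix A exceeded no suffix for 10 of 10 neuron markers (median difference 3.40), 5 of 5 macrophage markers (4.04), 5 of 5 genes of dividing cells (4.10) and 4 of 5 fibroblast markers (2.82), each count being of genes past the threshold. Dividing cell medians lay at 8.30 to 8.68 in suffix A. Without a suffix they lay at 8.42 to 8.92 after miR-21 but at 5.06 to 5.70 in the 3 other arrays, so that the ranges overlapped for all 5 genes. Fibroblast medians lay at 11.63 to 12.27 in suffix A and, without a suffix, at 11.53 to 13.20 after miR-21 but at 8.06 to 9.80 in the 3 other arrays. It fell for 6 of 6 endothelial markers (-2.82) and 3 of 3 Y-linked genes (-4.97). Without miR-34a 3 none of the neuron, fibroblast or Y-linked genes was called, while 3 macrophage, 5 dividing cell and 5 endothelial genes were. Fabp7 of satellite glia and Pdgfrb of mural cells were called higher in that fit. Of 6 pituitary genes 3 were called lower there (Prl by -11.61, Cga by -11.46 and Lhb by -3.78), against 0 with all arrays (median -1.22). Prl lay at 14.98, 14.26 and 15.17 in miR-324 1, 2 and 4 and at 14.92 in scramble 3. Elsewhere it lay at 3.37 to 4.83. Macrophage medians were 8.64 to 9.20 in suffix A, 4.05 and 4.44 in suffix B and 3.93 to 5.44 without a suffix. Endothelial medians were 11.09 to 11.46 in suffix A, 12.79 and 13.32 in suffix B and 10.30 to 15.43 without a suffix. The part of these cells in the sterol genes' difference was not tested.

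**Figure D5:**
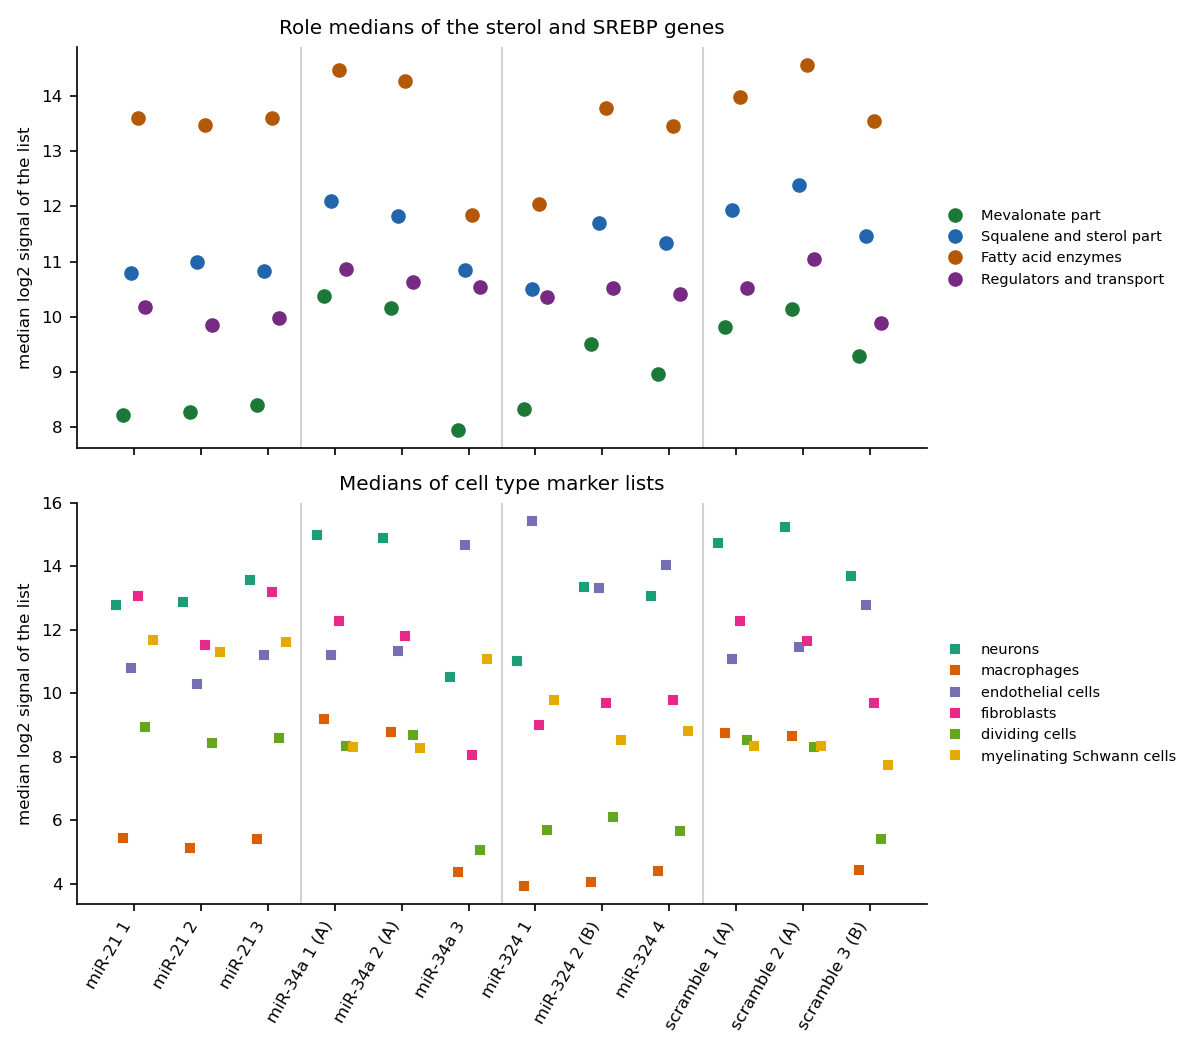
Median log2 signal of each role of the sterol and SREBP genes (top) and of 6 cell type marker lists (bottom) in each of the 12 arrays, suffix in brackets. Neuron markers and mevalonate genes are both low in miR-34a 3, at 10.52 and 7.95, and high in the suffix A arrays.

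Other genes of the pathway were counted from 4 lists. Of 10 further lipogenic SREBP targets none was called for miR-21, miR-34a or miR-324 minus scramble (medians -0.49, -0.10 and -0.61), while 4 were higher in suffix A than without a suffix: Fads2 by 2.68 ± 0.32 and Fads1 by 1.14 ± 0.33, both fatty acid desaturases, Elovl6, an elongase, by 2.06 ± 0.38, and Acly, which supplies acetyl-CoA, by 1.35 ± 0.35. Without miR-34a 3 none of these 4 was past the threshold. For miR-21 minus scramble 8 of the 10 were lower in the mean and 2 were higher without overlap of arrays. The 2 were Me1 (1.54 ± 0.44) and Gpam (1.34 ± 0.37; limma, adjusted p = 0.11 each). With the suffix as a fixed block Gpam was called higher, at 1.92 ± 0.41 (limma, adjusted p = 0.019). Of 5 measured genes of SREBP processing and Insig turnover none was called for any miRNA minus scramble or for suffix A minus no suffix. Of 5 measured isoprenoid genes 1 was called in any of the 6 miRNA comparisons: Fntb, the farnesyl transferase subunit, was 2.19 ± 0.48 higher after miR-21 than after miR-324 (limma, adjusted p = 0.036). Leaving out any 1 of the 6 arrays ended the Fntb call (adjusted p = 0.062 to 0.13), and it held with the suffix as a fixed block (1.74, adjusted p = 0.0034).

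Of 5 measured genes of the LXR receptors, sterol efflux and esterification 1 was called after miR-21: Abca1, the cholesterol exporter, rose. Abca1 measured 14.03, 13.95 and 14.40 in miR-21 1, 2 and 3, 11.90, 12.07 and 13.58 in miR-34a 1, 2 and 3, 12.47, 11.74 and 11.19 in miR-324 1, 2 and 4, and 11.45, 12.27 and 10.77 in scramble 1, 2 and 3. The miR-21 arrays were the 3 highest, and miR-34a 3 followed. The difference from scramble was 2.63 ± 0.48 (limma, adjusted p = 0.028) and from miR-324 2.33 ± 0.48 (adjusted p = 0.028). With the suffix as a fixed block the difference from scramble was 1.82 (adjusted p = 0.17) and that from miR-324 2.01 (adjusted p = 0.014). Of the 6 fits without 1 array, the Abca1 call against scramble held in 1, without scramble 2 (adjusted p = 0.047 to 0.12), and that against miR-324 in 1, without miR-324 1 (adjusted p = 0.030 to 0.13). Mylip, which marks the LDL receptor for breakdown, was lower in suffix A than without a suffix, by a log2 difference of -1.67 ± 0.46 (limma, adjusted p = 0.029), but without miR-34a 3 the difference was 0.11 ± 0.54 (adjusted p = 0.96).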

How the data were processed

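The 12 arrays are Clariom S Mouse arrays of total RNA. The deposited values are log2 signals; per the submitters' processing notes the authors used RMA (robust multi-array average) and Transcriptome Analysis Console 4.0. RMA sets all arrays to a common distribution, so a change in total signal is not seen, and differences close to the floor are understated. Array values carry no read depth, and the number of arrays limits the precision. Of 22206 probes 19572 had 1 gene symbol, 2634 were unnamed here, and every member has 1 probe. All 12 arrays were fitted with limma 3.58.1 in R 4.3.3 (lmFit and eBayes, two-sided), adjusted over the named probes by Benjamini-Hochberg. Unless a setting is named, adjusted p-values are from the fit on miRNA group, and for suffixes from the fit on group and suffix. The scripts were tested on simulated data. Values by array were planned for 13 listed members, of which Scd2 and Srebf1 were not analysed, and for any other past the threshold. Those of Lbr, which was not past it, are given as well. Other pathway genes are named where past it. The members, lists and tests were chosen with earlier results of these data known. No 2 arrays were identical.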

Additional observations from a re-analysis of the deposited data

How the results depend on the processing

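Alternatives were quantile normalization again, centring on array medians, only bright probes, a variance trend, array weights, only the compared groups, suffix or title number as a block, a within-suffix fit, mean of probes, an unadjusted p, and leaving out each array. With array weights the number of members called was 16 for miR-21 minus scramble (12.2% of all probes), 11 for miR-324 minus scramble (13.2%), 16 for miR-34a minus miR-21 (11% of all probes) and 15 for miR-34a minus miR-324 (14.3%). With only the 2 groups compared it was 13 for miR-21 minus scramble (4.63% of all probes). With calls at a 2-fold difference and an unadjusted p under 0.05 the counts were 16 for miR-21 (7.25% of all probes), 0 for miR-34a (0.169%) and 8 for miR-324 (5.87%) minus scramble, 12 for miR-34a minus miR-21 (3.72%), 2 for miR-21 minus miR-324 (7.16%) and 5 for miR-34a minus miR-324 (4.45%). With only bright probes 1 member was called for miR-34a minus miR-21 (0.48% of the probes kept). With the title suffix as a fixed block 0 were called for miR-21 minus scramble (median 0.01), 2 for miR-34a minus miR-21, and the median of miR-324 minus scramble was 0.03 (0.07 within suffix B); with a random block 0 were called for miR-21 minus scramble (median -0.74). With the title number as a replicate block 0 were called for miR-21 minus scramble and 0 for miR-21 minus miR-324; it also ended the calls of Abca1 (adjusted p = 0.14 against scramble and 0.20 against miR-324) and Fntb (0.11). Among arrays without a suffix 0 members were called for miR-21 minus miR-324. The numbers were not taken to pair the arrays: of 16 pairs of arrays with the same number in different groups 3 correlated above 0.1 (range -0.41 to 0.36). The causes of these changes were not tested. Leaving out 1 array gave 0 to 2 calls for miR-21, 0 for miR-34a and 0 to 1 for miR-324 minus scramble, with medians of -1.51 to -1.13, -0.48 to 0.29 and -1.20 to -0.52. It gave 0 to 13 for miR-34a minus miR-21, 0 to 1 for miR-21 minus miR-324, 0 to 5 for miR-34a minus miR-324 (13 and 5 without miR-34a 3), and 0 to 18 for suffix A minus no suffix (median 1.34 to 1.63), 0 being without miR-34a 3. Shares of all probes are given above for some of these fits only, and not for the title number block. The other counts are thus not set against all probes. Without miR-34a 3 no miR-34a array shares a suffix with a miR-21 or miR-324 array. Of 2333 results of single genes under an alternative, 2011 kept their direction and side of the threshold, 81 fell short of it and 80 passed it. The other 161 changed sign without being past the threshold in either fit, among them 11 for miR-21 minus scramble with the suffix as a fixed block. Each group has 3 arrays, and miR-21 shares no suffix with scramble, so the 2 are separated only through other groups.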
